A study of Homo sapiens with 6 samples.

Results

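The SR proteins and the hnRNPs are the main families of RNA-binding proteins that direct splicing, and the 39 protein-coding genes described here are those with a symbol made of SRSF and a number (12 genes) or beginning with HNRNP (27 genes). They were taken by symbol from the 63140 genes listed for each library, and the choice of these families was made with earlier results of these data known. Another 125 SRSF and HNRNP entries, which are pseudogenes or lncRNA, were left aside. Counts high enough for a test were found for 34 of the 39, all 12 SRSF genes and 22 HNRNP genes. RNA had been sequenced from BT-549, a wild-type triple negative breast cancer line, in 3 libraries of cells grown in adipocyte-conditioned medium (ACM) and 3 of cells grown in unconditioned medium (UCM), each for 24 h. ACM was medium with insulin, oleate and albumin kept on differentiating OP9 mouse cells. The labels give 50% ACM and the supplement of the paper undiluted ACM for these cultures, and the formula of UCM is not stated in the sources used here, so the adipocyte secretions cannot be told apart from other differences between the media. The replicates were wells of a single line, and p-values measure the spread between these wells only.

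SR proteins carry RNA recognition motifs and a tail rich in arginine and serine, bind exons and usually favor their inclusion. Their tails are phosphorylated by the SRPK and CLK kinases. Proteins of the hnRNP class coat nascent RNA and often favor exon skipping, and several also act in RNA export, decay and translation. Many genes of both families limit their own expression by splicing in an exon with an early stop codon, which sends the transcript to nonsense-mediated decay (NMD).

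Rounded expected counts summed to between 17135288 and 21053257 per library, and 14451 genes passed the filter of edgeR on low counts. The coefficient of biological variation shared by the tested genes was 0.115. Of 8 epithelial markers 2 passed that filter, and the 8 together summed to between 3.66 and 5.07 CPM (counts scaled by TMM to a common library size) in ACM and 3.55 to 5.75 in UCM, although the labels call the cells epithelial. The 4 mesenchymal markers, among them VIM, summed to between 4427 and 4954 CPM in ACM and 4117 to 4299 in UCM. ESR1 and PGR, the hormone receptors absent from triple negative tumors, had no count in any library, where 3 counts would be 0.142 to 0.175 CPM. ERBB2, the HER2 gene, is the other of the 3 markers of this kind. It held their whole sum, 72.6 to 75.0 CPM in ACM and 61.6 to 73.1 in UCM. The 7 adipocyte markers summed to 2.08 to 3.10 CPM in ACM and 1.40 to 1.92 in UCM, with 3 of the 7 at 0 in every library. The sums of these markers and of the mesenchymal ones were higher in all 3 ACM libraries, and their part in the results below was not tested.

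Genes of both families were among the abundant transcripts of these cells. TPM, which is scaled per length and so can be compared between genes, was highest for HNRNPA1, with a mean of 1028 over the 6 libraries and 11.8% of the TPM of the 39 genes. HNRNPA2B1 followed with 748, HNRNPC with 527, HNRNPK with 515 and HNRNPH1 with 476 TPM, and these 5 genes held 37.9% of the total. The most abundant SR genes were SRSF3 at 370.3, SRSF2 at 327 and SRSF1 at 274 TPM. HNRNPC and HNRNPK, next to each other in this order, overlapped in TPM across the libraries, as did SRSF2 and SRSF1. At the other end stood SRSF8 at 13.0, HNRNPA1L3, a retrocopy of HNRNPA1, at 6.32 and SRSF12 at 3.26 TPM. HNRNPA1L2, another retrocopy, had 13 counts in ACM replicate 3, 22 in UCM replicate 2 and 0 in the other libraries. The 4 genes HNRNPCL1 to HNRNPCL4 were at 0 counts in every library.

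**Figure D1:**
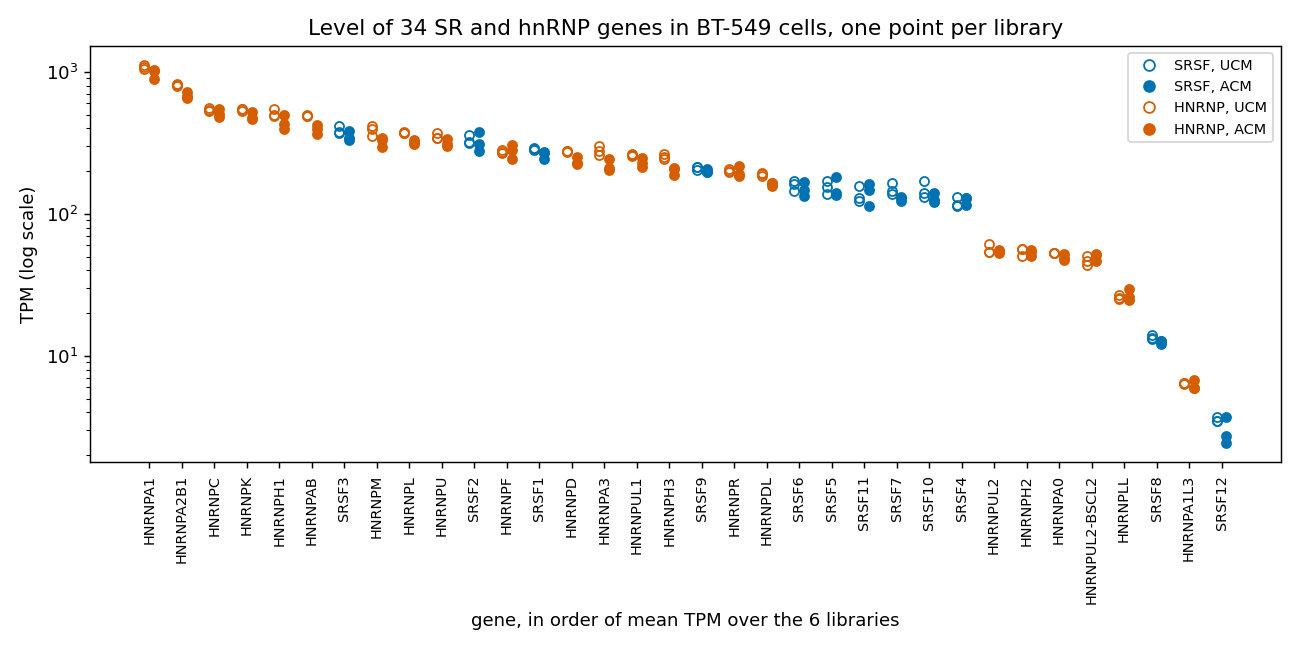
TPM on a log axis of the 34 tested genes in order of their mean over the 6 libraries, with open points for the UCM libraries and filled points for the ACM libraries. HNRNPA1 lies highest with a mean of 1028 TPM and SRSF12 lowest with 3.26 TPM.

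The study compared ACM with UCM to learn how lipogenesis bears on gene regulation. The transcript levels of these genes lay slightly below UCM in ACM for nearly the whole group. Of the 34 tested genes, 32 had a negative log2 fold change and the median was -0.15, against -0.01 over all 14451 genes. Without UCM replicate 1 the median was -0.0919 and 27 genes were negative. Both exceptions, SRSF8 and HNRNPUL2-BSCL2, had values above 0 that did not pass the test. In edgeR's quasi-likelihood test, with Benjamini-Hochberg adjustment over all genes, HNRNPA3 and HNRNPAB fell at an adjusted p at or below 0.05. These are 2 of 34 genes or 5.88%, whereas 2.21% of all genes fell, and 0 of 34 rose against 3.35% of all genes. At an unadjusted p at or below 0.05 the same test gave 14 lower members (41.2%), against 11.5% of all genes, and 0 higher, against 11.9%. The shares of all genes take no account of level, and 26 of the 34 members had at least 100 TPM. Abundant genes were called in larger shares. Of 2405 genes with a mean of at least 100 CPM, a cut that unlike TPM takes no account of length, 105 fell and 129 rose at the adjusted p. At the unadjusted p 435 of these 2405 were lower and 356 higher. That count of 14 was 8 without ACM replicate 2 and 9 without UCM replicate 2 or UCM replicate 3. DESeq2 gave 6 lower and 0 higher members at its adjusted p. It also called more genes in all, 422 lower and 725 higher against 320 and 484 by edgeR. None of the 34 reached the log2 fold change of 0.58 in either direction that the study required of its DEGs. The study set this beside a p of 0.05, not stated to be adjusted or unadjusted. By edgeR, 5.83% of all genes had a change of that size and an unadjusted p at or below 0.05. CPM and TPM are shares of the RNA in a library and do not measure RNA per cell. A change in some of the cells and a smaller change in all of them cannot be told apart in bulk samples.

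**Figure D2:**
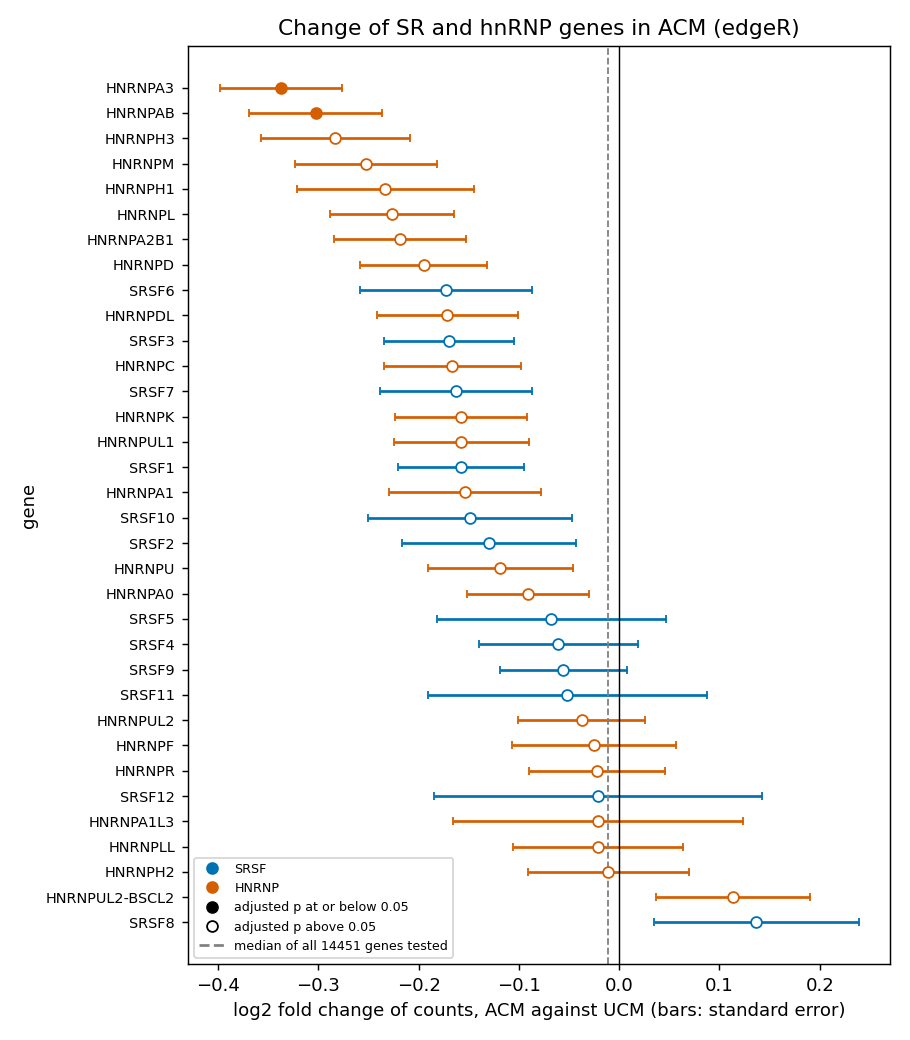
Log2 fold change of the counts in ACM against UCM for the 34 tested genes with its standard error, filled where the edgeR adjusted p is at or below 0.05. HNRNPA3 at -0.34 and HNRNPAB at -0.30 are filled, 32 points lie left of 0, and the dashed line marks the median of all 14451 genes at -0.01.

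The summed HNRNP transcripts separated the conditions and the summed SRSF transcripts did not. HNRNP genes together came to 7649.8, 7700.6 and 8003 CPM in ACM and to 8767, 8779.5 and 8759 CPM in UCM, so each ACM library was below each UCM library and the mean was 11.2% lower. The UCM libraries differed from each other by far less (SD 10.2 CPM, n = 3) than the ACM libraries (SD 191 CPM, n = 3). SRSF genes together came to 2064, 1889 and 1852 CPM in ACM and to 2225, 2052 and 2047 CPM in UCM. ACM replicate 1 exceeded UCM replicates 2 and 3 there, although ACM was below UCM at each replicate number, and the mean was 8.2% lower. In TPM the means were 12.1% lower for HNRNP and 6.06% lower for SRSF. Counted gene by gene, all 3 ACM values of CPM lay below all 3 UCM values for 18 of the 34 genes (52.9%), 15 of 22 HNRNP (68.2%) and 3 of 12 SRSF (25%). Over all genes tested this share was 15.1%, and the opposite order held for 13.9% of all genes and 0 members. Among the 2405 genes with a mean of at least 100 CPM, all 3 ACM values were lower for 519 and higher for 406. All 26 members with at least 100 TPM had a negative log2 fold change, with a median of -0.16, as had 6 of the 8 below that level, with a median of -0.02. A cut at 100 CPM would take in other members. HNRNPUL2-BSCL2, with means of 132 CPM in ACM and 122 in UCM but 48.4 TPM, had a positive log2 fold change of 0.11.

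**Figure D3:**
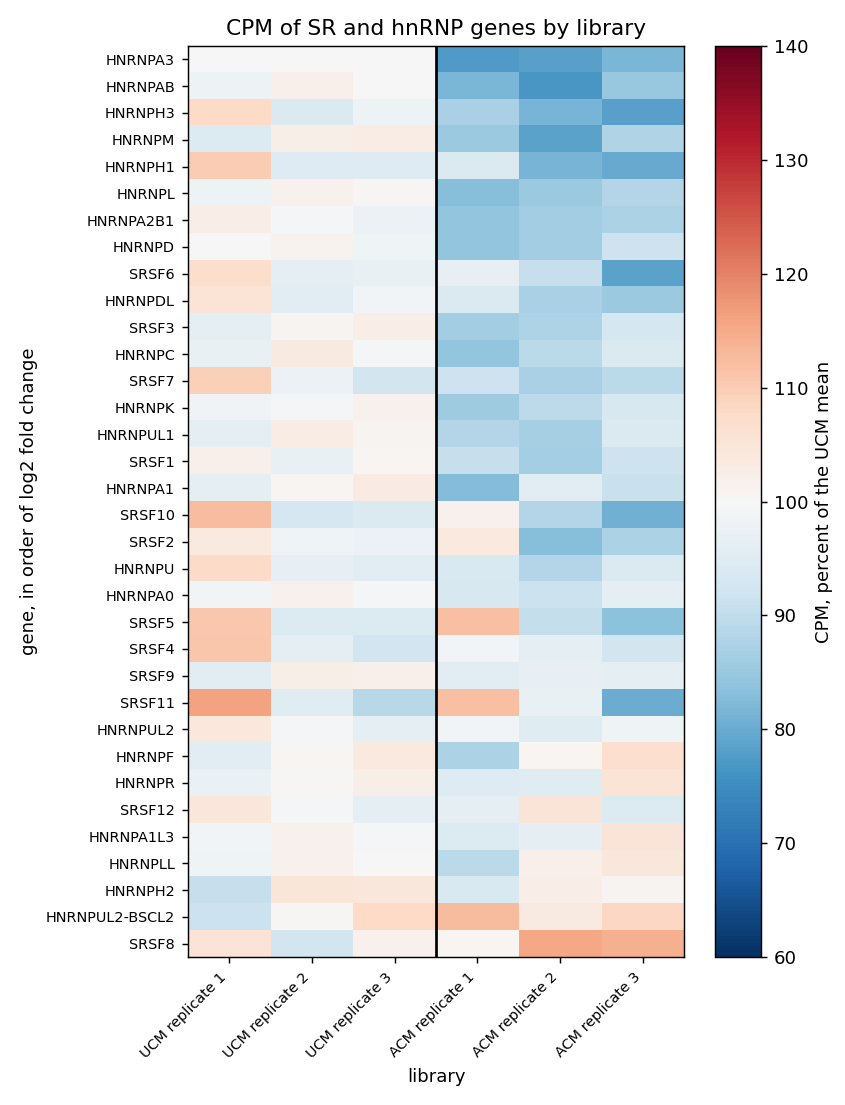
CPM of the 34 tested genes in each library as a percent of the UCM mean of the gene, with UCM libraries on the left and ACM libraries on the right. HNRNPA3 lies between 77.5 and 81.8% in the 3 ACM libraries, and the upper rows are below 100% in all 3, while SRSF genes such as SRSF11 are high in replicate 1 of both conditions.

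Both of the genes that passed the test encode proteins with a pair of RNA recognition motifs and a glycine-rich tail. HNRNPA3, a protein of this type that also takes part in RNA transport, measured 296, 299 and 313 CPM in the ACM libraries and 383, 383 and 382 CPM in the UCM libraries. The UCM values nearly coincided and the ACM values lay well below them. The means were 303 ± 8.92 and 382 ± 0.706 CPM (SD, n = 3), a log2 fold change of -0.34 with a standard error of 0.06 and an edgeR adjusted p of 0.0136. HNRNPAB, which binds both RNA and DNA, measured 409, 384 and 425 CPM in ACM and 491, 510.4 and 502 CPM in UCM. Here too the groups did not overlap, with means of 406 ± 20.6 and 501 ± 9.83 CPM (SD, n = 3). Its log2 fold change was -0.30 with a standard error of 0.07 and an edgeR adjusted p of 0.0290. Neither call held when ACM replicate 2, UCM replicate 2 or UCM replicate 3 was left out, and HNRNPAB alone was also lost without ACM replicate 1, with log2 fold changes of -0.36 to -0.31 for HNRNPA3 and -0.34 to -0.26 for HNRNPAB over the 15 alternatives.

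On GRCh38, HNRNPA3 spans 177212694 to 177223959 on chromosome 2 and HNRNPAB spans 178204533 to 178211163 on chromosome 5, both on the plus strand. Their promoters are shown because these genes carried the change that passed the test. RefSeq's table on GRCh38.p14 gives 250 bases before to 50 bases after each start, which is chr2:177212544-177212843 for HNRNPA3 and chr5:178204283-178204582 for HNRNPAB, plus strand. Capitals mark the E-box CACGTG, the GC box GGGCGG, the ETS core CCGGAAG and the CCAAT box wherever these letters stand on either strand.
HNRNPA3: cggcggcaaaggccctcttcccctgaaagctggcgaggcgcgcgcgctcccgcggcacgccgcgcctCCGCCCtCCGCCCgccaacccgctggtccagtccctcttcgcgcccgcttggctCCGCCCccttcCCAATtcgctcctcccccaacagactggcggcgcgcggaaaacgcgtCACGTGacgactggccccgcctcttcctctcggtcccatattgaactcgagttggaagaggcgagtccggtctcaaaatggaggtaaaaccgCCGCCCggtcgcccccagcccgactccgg
HNRNPAB: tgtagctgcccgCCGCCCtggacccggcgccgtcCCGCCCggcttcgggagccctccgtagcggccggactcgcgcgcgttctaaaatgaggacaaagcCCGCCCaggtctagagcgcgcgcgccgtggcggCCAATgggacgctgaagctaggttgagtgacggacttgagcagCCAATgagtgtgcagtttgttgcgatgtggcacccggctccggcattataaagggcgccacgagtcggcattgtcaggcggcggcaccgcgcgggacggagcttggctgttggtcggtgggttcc
The HNRNPA3 window holds 1 E-box, 4 GC boxes and 1 CCAAT box and has a GC content of 70.0%. The HNRNPAB window holds 3 GC boxes and 2 CCAAT boxes, with a GC content of 67.3%. Promoters in the same table were matched by symbol for 31 of the 34 tested genes, 20 HNRNP and 11 SRSF, and 27305 promoters stood in it. The E-box letters stood in 7 of 20 HNRNP promoters (HNRNPA3, HNRNPD, HNRNPDL, HNRNPH2, HNRNPH3, HNRNPM and HNRNPUL1), in 0 of 11 SRSF promoters and in 7.43% of all promoters. GC box letters stood in 16 of 20 HNRNP and 5 of 11 SRSF promoters and 44.6% of all. CCAAT letters stood in 14 of 20 HNRNP and 2 of 11 SRSF promoters and 35.7% of all, and ETS letters in 3 and 2 against 10.7% of all. The GC box and CCAAT counts include both HNRNPUL2 and HNRNPUL2-BSCL2, which start close together on chromosome 11 (62727457 and 62727384, minus strand). These counts may thus hold the same promoter under both symbols. Another 4 motifs were searched on both strands and are not in capitals above. The TATA box TATAAA stood in 3 of 20 HNRNP promoters, that of HNRNPAB among them, and 2 of 11 SRSF promoters, against 12.0% of all. The NRF1 site GCGCATGC stood in 0 HNRNP and 1 SRSF promoter against 3.27% of all. The CRE TGACGTCA stood in 0 of the 31 against 1.98%, and the sterol element TCACNCCAC in 0 HNRNP and 1 SRSF promoter against 1.15%. The median GC content was 65.0% over the 31 promoters and 58.3% over all, and a match is a matter of letters only.

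HNRNPA1 and HNRNPA2B1, the founding members of the hnRNP A/B class, act in splice site choice and in RNA transport. HNRNPA2B1 measured 1048, 1070.4 and 1088 CPM in ACM and 1276, 1239 and 1214.5 CPM in UCM. Its groups were apart, and the log2 fold change of -0.22 with a standard error of 0.07 had an edgeR adjusted p of 0.0806. HNRNPA1 measured 693, 804 and 763 CPM in ACM and 805, 844 and 865 CPM in UCM. The highest ACM value nearly met the lowest UCM value, and the log2 fold change was -0.15 (SE 0.08, edgeR adjusted p 0.254). HNRNPA1 has 74 pseudogenes in the annotation, and the counts given to these came to between 0.363 and 0.589% of the count of the gene. For HNRNPA3 the 16 pseudogenes held at most 0.282%.

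Proteins of the H/F class bind runs of G in and around exons. HNRNPH3, a member of that class, had the next largest change after HNRNPA3 and HNRNPAB. It measured 165, 154 and 148 CPM in ACM and 204, 179 and 185 CPM in UCM. The groups did not overlap, and the log2 fold change of -0.28 with a standard error of 0.07 had an edgeR adjusted p of 0.0532. HNRNPH1, its abundant relative, had a log2 fold change of -0.23 with an edgeR adjusted p of 0.144. HNRNPM, a splicing factor linked to epithelial-mesenchymal transition, had -0.25 with an edgeR adjusted p of 0.0666, and HNRNPL, which binds CA repeats, -0.23 with 0.0609. HNRNPH3 passed in 6 of the 15 alternatives, HNRNPM in 5, and HNRNPL, HNRNPA2B1 and HNRNPH1 in 2 each.

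HNRNPC, which binds uridine tracts and keeps cryptic exons out of mRNA, measured 389, 412 and 435 CPM in ACM and 448, 479 and 460.2 CPM in UCM. All ACM values of CPM were below all UCM values, by a log2 fold change of -0.17 (SE 0.07, edgeR adjusted p 0.176), while its TPM overlapped. HNRNPK, a KH domain protein that binds C-rich RNA, had a log2 fold change of -0.16 (edgeR adjusted p 0.183). HNRNPD, also called AUF1, which binds AU-rich elements of unstable mRNAs, had -0.19 (edgeR adjusted p 0.1002). The remaining 11 HNRNP genes had log2 fold changes from -0.17 to 0.11, the lowest edgeR adjusted p among them was 0.173, and 4 of them had ACM values all below the UCM values. The upper end of that range was HNRNPUL2-BSCL2, a transcript that reads through from HNRNPUL2 into BSCL2 and shares exons with both, so its counts depend on how shared reads were split. BSCL2, the seipin gene of lipid droplet formation, had a log2 fold change of 0.23 (edgeR adjusted p 0.251).

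Among the SR proteins no gene passed the test. SRSF3, the smallest of them and an adaptor for mRNA export, measured 242, 246 and 261 CPM in ACM and 271, 284 and 288 CPM in UCM. SRSF1, the best known splicing activator of the family, measured 319, 303 and 322 CPM in ACM and 359, 341 and 354 CPM in UCM. The groups did not overlap for either gene, with log2 fold changes of -0.17 (SE 0.06) and -0.16 (SE 0.06) and edgeR adjusted p of 0.146 and 0.163. SRSF2, the component of nuclear speckles also called SC35, measured 319, 254 and 268 CPM in ACM and 318, 302 and 299.7 CPM in UCM. ACM replicate 1 was as high as the highest UCM value, and the log2 fold change of -0.13 (SE 0.09) had an edgeR adjusted p of 0.411. SRSF6 and SRSF7 had log2 fold changes of -0.17 and -0.16 with edgeR adjusted p of 0.262 and 0.231. SRSF8, a retrocopy of SRSF2, measured 21.4, 24.6 and 24.3 CPM in ACM and 22.5, 19.7 and 21.7 CPM in UCM, groups that overlapped, with a log2 fold change of 0.14 (edgeR adjusted p 0.467).

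SRSF genes also differed between replicates within a condition. Replicate 1 had the highest CPM of both conditions for 7 of 12 SRSF genes (58.3%), against 4 of 22 HNRNP genes (18.2%) and 19.4% of all genes tested. SRSF11 was one of these, with 196, 169.9 and 140.2 CPM in ACM and 203, 167 and 155 CPM in UCM. The highest value of each condition came from replicate 1 and the lowest from replicate 3. The SR protein kinase CLK1 had the same order, with 35.4, 28.8 and 18.5 CPM in ACM and 34.4, 22.5 and 20.9 CPM in UCM. Replicate 1 had the deepest library of each condition, and the part of depth in this order was not tested.

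The effective length of a gene is the mean length of its transcripts, corrected for fragment length and weighted by their abundance in that library, so it moves when the mix of transcripts moves. No member passed the limma test of log2 effective length at an adjusted p at or below 0.05, and over 14450 genes 2 did (0.0138%), FOXO3 and MT1M, which are named here after their values were seen. At an unadjusted p at or below 0.05 limma gave 6 of 34 members, 4 shorter and 2 longer in ACM, against 2.24% of all genes shorter and 3.09% longer. The groups did not overlap for 8 of 34 members (23.5%), against 9.19% of all genes. ACM was the shorter in 6 of the 34, against 534 of all 14450 genes (3.7%). It was the longer in 2 of the 34, against 794 of all genes (5.49%). Of these 8, 6 were among the 12 SRSF genes (50.0%) and 2 among the 22 HNRNP genes (9.1%). The median size of the log2 length change was 0.08 for SRSF, 0.01 for HNRNP and 0.03 for all genes. It was 0.017 for the 2405 genes with a mean of at least 100 CPM. HNRNPA0, HNRNPH2 and HNRNPUL2-BSCL2 have only 1 annotated transcript each, so their effective length cannot show a change of mix.

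HNRNPC had the smallest p among the members. Its effective length was 1143, 1124 and 1152 bases in ACM and 1235, 1219 and 1215 bases in UCM. Replicates lay close together and the conditions well apart, by a log2 length change of -0.10 (SE 0.01, limma p 0.000575), which did not pass after adjustment (limma adjusted p 0.488). HNRNPA1 was apart by far less, at 1105.5, 1103 and 1075 bases in ACM and 1109, 1109 and 1106.5 bases in UCM. SRSF2 measured 1199, 1276 and 1252 bases in ACM and 1284, 1342 and 1336 in UCM, a log2 length change of -0.09. SRSF4, a long SR protein also called SRp75, measured 1859.8, 1797.5 and 2010.3 bases in ACM and 2132, 2049.7 and 2027 in UCM (-0.13). The shortest UCM value of SRSF4 exceeded the longest ACM value by little. SRSF6 measured 1732, 1812 and 1803 bases in ACM and 1934, 1989 and 1818 in UCM (-0.10, limma p 0.0597). Its groups too were apart by little, with 1812.45 bases in ACM replicate 2 and 1818.34 in UCM replicate 3. SRSF11 measured 1701, 1595 and 1774 bases in ACM and 1865, 1819.8 and 1806 in UCM (-0.12). Limma adjusted p lay between 0.899 and 0.970 for these 4 SRSF genes.

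Length moved the other way for SRSF7 and SRSF8. SRSF7, which carries a zinc knuckle and takes part in mRNA export, measured 1178, 1167 and 1201 bases in ACM and 1146, 1143 and 1158 in UCM (0.04, limma adjusted p 0.855). SRSF8 measured 2487, 2676 and 2748 bases in ACM and 2315, 2099 and 2354 in UCM (0.23, limma p 0.0189, limma adjusted p 0.776). For SRSF8 the ACM mean was 117% of the UCM mean, the largest such shift among the members whose groups were apart. SRSF12 ranged from 2192 to 3145 bases in ACM and from 2090.5 to 2451 in UCM, and the groups overlapped.

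**Figure D4:**
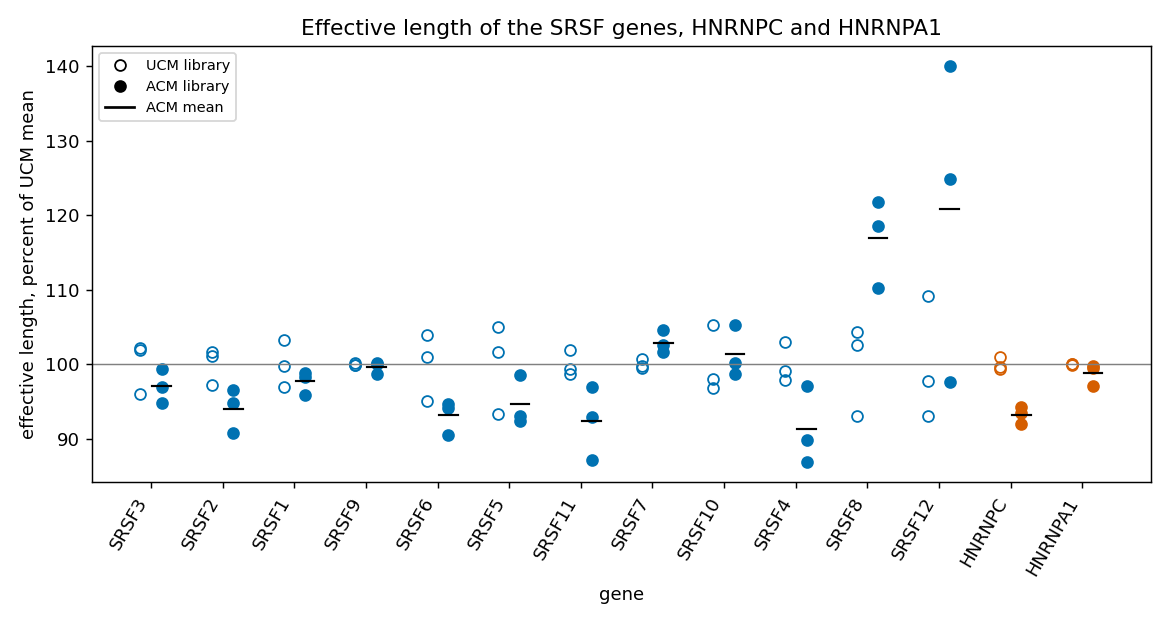
Effective length of the 12 SRSF genes, HNRNPC and HNRNPA1 in each library as a percent of the UCM mean of the gene, with open points for UCM, filled points for ACM and a bar at the ACM mean. ACM points of SRSF2, SRSF4, SRSF6, SRSF11, HNRNPC and HNRNPA1 lie below and those of SRSF7 and SRSF8 above all UCM points of the gene.

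Exons with an early stop codon are annotated inside an intron of the main transcript for 10 of the 34 tested genes in GENCODE 44, 7 SRSF and 3 HNRNP. SRSF4, SRSF6, SRSF7 and SRSF11 are both on this list and among the genes whose lengths were apart, and for each of them the coding stretch of such an exon up to the stop codon, in capitals, is shown from the GRCh38 genome in the direction of the gene.
SRSF4 (SRSF4-205, chr1:29166009-29166064, minus strand): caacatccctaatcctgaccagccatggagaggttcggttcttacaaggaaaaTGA
SRSF6 (SRSF6-202, chr20:43459153-43459304, plus strand): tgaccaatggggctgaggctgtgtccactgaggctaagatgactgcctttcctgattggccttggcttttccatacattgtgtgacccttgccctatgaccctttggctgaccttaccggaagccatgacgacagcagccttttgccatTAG
SRSF7 (SRSF7-204, chr2:38749319-38749346, minus strand): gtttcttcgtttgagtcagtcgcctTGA
SRSF11 (SRSF11-212, chr1:70231859-70231908, plus strand): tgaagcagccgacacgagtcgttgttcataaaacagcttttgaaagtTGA
The whole exons are 175, 268, 449 and 117 bases long. A transcript that ends its reading frame in such an exon is a substrate of NMD. Effective length is given per gene and holds no value for any of these exons. The 4 genes have between 6 (SRSF6) and 18 (SRSF11) annotated transcripts, from 206 bases (SRSF4) to 8128 bases (SRSF4) in length, so other exons or ends could give the same change of length, and which transcripts changed was not tested.

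Division by effective length changed what the level of a few genes showed. TPM and counts differed most for SRSF8, SRSF12 and SRSF4. SRSF8 had a log2 fold change of 0.14 by counts and of -0.10 on the log2(TPM + 1) scale, with 12.2, 12.7 and 12.8 TPM in ACM and 14.1, 13.3 and 13.2 TPM in UCM. The TPM of SRSF8 was lower in all 3 ACM libraries, whereas its CPM overlapped. SRSF4 measured 171, 167 and 160.2 CPM in ACM and 192, 167 and 160.0 CPM in UCM, and 130.2, 128 and 115 TPM in ACM and 131, 115 and 113 TPM in UCM. The groups overlapped on both scales, with a log2 fold change of -0.06 by counts and 0.06 by TPM. SRSF12 measured 5.37, 5.86 and 5.27 CPM in ACM and 5.83, 5.54 and 5.36 CPM in UCM, and its log2 fold change was -0.02 by counts and -0.22 by TPM. HNRNPC, whose CPM groups were apart, overlapped in TPM, with a log2 fold change of -0.08 (limma-trend adjusted p 0.531). Its counts gave -0.05 in DESeq2 with effective lengths as offsets (DESeq2 adjusted p 0.850). HNRNPAB fell by TPM as well (log2 fold change -0.33, limma-trend adjusted p 0.0455, not passed with any single library left out), as 1 of 34 members against 0.913% of all genes, and 0 members rose against 1.59%. HNRNPA3 had -0.35 by TPM with a limma-trend adjusted p of 0.0752, and HNRNPH3 -0.32 with 0.0540.

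Genes that act with these families were examined in 5 lists of 171 genes, of which 167 were tested. Of the 167, 135 had a negative log2 fold change, as had 7497 of all 14451 genes, and the median was -0.10. The edgeR test called 2 of them lower (1.2%, below the 2.21% of all genes) and 0 higher, against 3.35% of all genes. At an unadjusted p at or below 0.05 it gave 37 of the 167 lower and 3 higher. Of all genes 11.5% were lower and 11.9% higher at that cut-off. The called genes were PNRC2, a decapping and NMD cofactor, and DYRK1A, a kinase that phosphorylates SR proteins. PNRC2 measured 89.7, 90.1 and 90.8 CPM in ACM and 107.8, 114 and 114 CPM in UCM, a log2 fold change of -0.31 (SE 0.06, edgeR adjusted p 0.0217). DYRK1A measured 48.1, 49.9 and 49.1 CPM in ACM and 62.4, 59.2 and 57.3 CPM in UCM, a log2 fold change of -0.28 (SE 0.07, edgeR adjusted p 0.0484). The ACM values of both genes were nearly level and all below the UCM values. No gene of the 5 lists was called without ACM replicate 2, ACM replicate 3, UCM replicate 2 or UCM replicate 3. The 3 genes higher at an unadjusted p were DYRK1B, CIRBP and NOVA2, named here after their values were seen, and all had ACM values above all UCM values. DYRK1B, a kinase related to DYRK1A, measured 32.7, 39.4 and 33.0 CPM in ACM and 20.3, 25.8 and 28.5 CPM in UCM, a log2 fold change of 0.50 (SE 0.13, edgeR adjusted p 0.0562). CIRBP, a cold-inducible RNA-binding protein, had a log2 fold change of 0.26 (edgeR adjusted p 0.120), and NOVA2, a splicing regulator known from neurons, had 0.90 (edgeR adjusted p 0.166) at 1.57 CPM or less. Among the kinases and phosphatases of SR proteins 9 of 15 log2 fold changes were negative with a median of -0.04, and SRPK1 had -0.06, SRPK2 -0.04, CLK1 0.09 and CLK4 0.06, none of which passed the edgeR test.

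In the SR-related proteins 22 of 28 were negative with a median of -0.08, and TRA2B, an SR-like activator of exons, measured 164, 171 and 169.7 CPM in ACM and 198, 200.2 and 194 CPM in UCM. The groups of TRA2B were apart by a log2 fold change of -0.23 (edgeR adjusted p 0.0534). In the hnRNP proteins and splicing regulators under other symbols 30 of 37 were negative with a median of -0.12. SYNCRIP, also called hnRNP Q, had -0.14 (edgeR adjusted p 0.248), and PTBP1, the polypyrimidine tract binding repressor also called hnRNP I, had -0.12 (edgeR adjusted p 0.400). Core spliceosome genes were negative in 58 of 69 cases with a median of -0.11, and genes of NMD and the exon junction complex in 16 of 18 with a median of -0.11. The medians of these lists lay between 0 and the HNRNP median of -0.16, and the differences between lists were not tested. The SRSF median was -0.10, but -0.06 without UCM replicate 1 and -0.16 without ACM replicate 1, where the HNRNP median was -0.12, so the order of the families turned with that library.

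**Figure D5:**
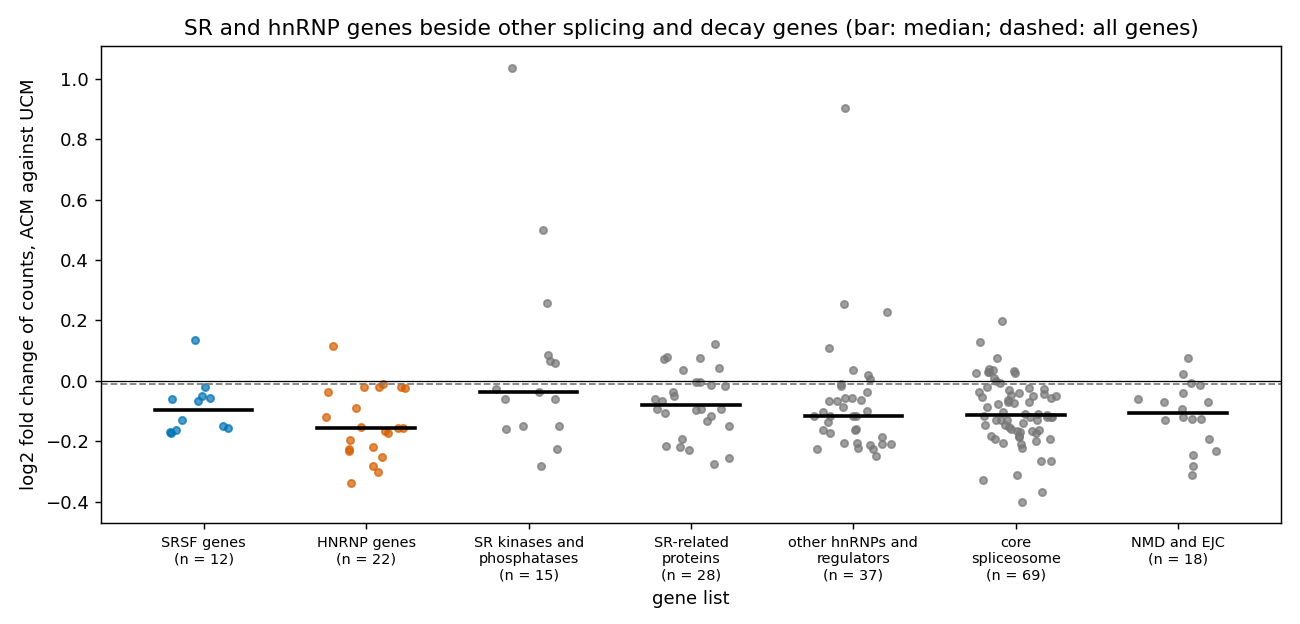
Log2 fold change of the counts in ACM against UCM, with a point per tested gene and a bar at the median of each list. The medians are -0.10 for SRSF, -0.16 for HNRNP and -0.04 to -0.12 for the 5 other lists, with SRSF at -0.16 and HNRNP at -0.12 when ACM replicate 1 is left out, and the dashed line marks the median of all genes at -0.01.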

How the data were processed

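PolyA-enriched libraries were read in pairs. Trim Galore (trimming), STAR (alignment to GRCh38) and RSEM (quantification) were run by the authors, in versions not given in the sources used here. For each library the authors deposited expected counts per gene, not scaled for depth, in which reads fitting several transcripts are shared out. The authors also deposited TPM, scaled by effective length and to the sum of the library, and effective lengths. A further deposited table with the authors' own fold changes and p-values was not used.

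Identifiers matched GENCODE 44 for 62541 of 63140 genes, 1 member (HNRNPR) under a later version. Tests were run in R 4.3.3. Rounded expected counts were given to edgeR 4.0.16 (TMM, filterByExpr, quasi-likelihood with robust estimation), with no term beside condition. CPM use the TMM-scaled totals of tested genes. Log2 effective length, with a trend on mean log2 CPM, and log2(TPM + 1) were compared with limma 3.58.1 (robust for length). Adjustment was by Benjamini-Hochberg over all genes tested, and scripts were tested on simulated data. Alternatives included DESeq2 1.42.0, other scalings and filters, the replicate block and each library left out.

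The members and lists were chosen with earlier results of these data known, and the motifs after the values were seen. Values in every library are given for members at an adjusted p at or below 0.05, the 3 most abundant of each family, the 3 largest changes, the 3 with the largest gap between TPM and counts, and, after their values were seen, for the genes whose lengths were apart, SRSF11, CLK1 and TRA2B. List genes at the adjusted p and SRPK1, SRPK2, CLK1, CLK4, TRA2B, SYNCRIP and PTBP1 are given whatever their values, and other genes named were chosen after their values were seen.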

Additional observations from a re-analysis of the deposited data

How the results depend on the processing

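The median log2 fold change of the 34 genes was negative in all 15 alternatives, 26 to 32 of the genes were below 0 in each, and 23 of the 34 genes, 16 HNRNP and 7 SRSF, kept their sign in each of them. Genes called lower by counts numbered 2 as reported, 6 with DESeq2, 4 with a filter of at least 1 count in total, 7 with the replicate block, and 0 to 3 with each library left out in turn. Comparisons added after the data had been seen gave 5 without replicate 1 of both conditions and 3 with library totals only. The median moved from -0.15 to -0.11 with DESeq2 and effective lengths as offsets, to -0.12 without replicate 1 of both conditions, and ranged from -0.142 to -0.0919 with each library left out. Genes of the 5 lists called numbered 2 as reported, 5 with DESeq2, 1 with RLE size factors, 9 with at least 1 count in total, 17 with the replicate block, 11 without replicate 1 of both conditions and 0 to 6 with each library left out. By TPM, HNRNPAB alone passed as reported, 0 genes passed when every gene with TPM above 0 was tested, 2 passed with the replicate block, and 0 with any library left out. By length, 0 members passed in the alternatives run. SRSF4 changed sign to 0.0900 with effective lengths as offsets and to 0.012 without replicate 1 of both conditions, SRSF8 to -0.0752 with the offsets, and SRSF12 to 0.0419 without replicate 1 of both conditions. With each library left out SRSF4 ranged from -0.10 to 0.0302 and SRSF12 from -0.0685 to 0.0207. The cause of these moves was not tested.

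Over all genes, 484 rose and 320 fell as reported, 725 and 422 with DESeq2, 1045 and 679 with at least 1 count in total, 909 and 703 with the block, and 1017 and 726 without replicate 1 of both conditions. The lowest numbers were 125 and 70 without UCM replicate 2 and 156 and 62 without UCM replicate 3. Same-numbered ACM and UCM libraries were not treated as pairs in the main test, since the study states no covariates. Their deviations from the group means correlated by 0.318, 0.035 and 0.177 for replicates 1, 2 and 3. Correlations between unlike numbers ran from -0.314 to 0.196, and ACM replicate 3 correlated more with UCM replicate 2 (0.196) than with its own number. Whether same-numbered wells were handled together is not stated in the sources used here. With 3 libraries a condition, the standard errors of 0.06 to 0.16 on the log2 scale limit which of these small changes can be told from 0.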
